A study of Mus musculus with 6 samples.

Results

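The genes of 10 m6A reader proteins were examined in splenic NK cells with and without the m6A methyltransferase METTL3. They were chosen by symbol from a fixed list (Ythdf1, Ythdf2, Ythdf3, Ythdc1, Ythdc2, Igf2bp2, Igf2bp3, Fmr1, Fxr1 and Prrc2a), and all 10 were found among the 14490 genes of the deposited table. The series holds mRNA-seq of splenic NK cells of C57BL/6 mice from 3 WT and 3 cKO samples. WT mice carried floxed Mettl3 alleles without Cre (Mettl3fl/fl), and cKO mice carried the same floxed alleles with a Cre gene expressed from the Ncr1 locus (Ncr1Cre-Mettl3fl/fl), which acts in cells expressing NKp46. The Cre allele was present in cKO mice only, so its own effect and that of the Mettl3 deletion cannot be told apart. The labels give neither the age of the animals nor whether each sample came from a single mouse. If samples shared animals, the p-values would measure only the spread between these samples, which may be technical.

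N6-methyladenosine (m6A) is a methyl mark that the METTL3-METTL14 writer complex places on mRNA, often near the stop codon, and reader proteins bind the marked RNA. The readers with a YTH domain hold the methylated base directly in an aromatic pocket. YTHDF1, YTHDF2 and YTHDF3 are cytoplasmic and act on the decay and translation of marked mRNA, YTHDC1 is nuclear and acts on splicing and export, and YTHDC2 is an RNA helicase best known from germ cells. The IGF2BP proteins, FMRP (Fmr1) and its paralog FXR1, and PRRC2A are RNA-binding proteins of other families that favour m6A-marked RNA without a YTH domain.

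The 3 YTHDF genes encode closely related proteins, and the extent to which reads can be assigned to each of them bears on every comparison between them. In pairwise alignments of the coding sequence of the longest coding transcript in GENCODE M21 (GRCm38), 70.4% of aligned bases were identical between Ythdf1 and Ythdf2, 71.3% between Ythdf1 and Ythdf3 and 71.8% between Ythdf2 and Ythdf3. The most alike ungapped stretch of 90 coding bases, searched in steps of whole codons, is shown because the paralogs are hardest to tell apart there. It lies within 1 coding exon of each gene, at chr2:180911122-180911211 (minus strand) for Ythdf1, chr4:132204567-132204656 (minus strand) for Ythdf2 and chr3:16204900-16204989 (plus strand) for Ythdf3. The sequences are written 5′ to 3′ on the coding strand, and capitals mark the positions at which the 3 genes are not all alike:
Ythdf1: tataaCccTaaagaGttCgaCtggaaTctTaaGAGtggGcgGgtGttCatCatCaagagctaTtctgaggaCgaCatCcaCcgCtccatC
Ythdf2: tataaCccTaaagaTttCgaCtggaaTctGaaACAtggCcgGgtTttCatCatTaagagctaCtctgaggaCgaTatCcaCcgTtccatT
Ythdf3: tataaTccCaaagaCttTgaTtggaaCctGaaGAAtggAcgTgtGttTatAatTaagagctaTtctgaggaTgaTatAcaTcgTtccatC

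Even in this stretch 23 of 90 positions differed. No stretch of 75 bases of the longest coding transcript of Ythdf1 or Ythdf3 was found in a transcript of any other gene (0 of 3110 and 0 of 5028 stretches). For Ythdf2, 3.75% of such stretches were shared with the processed pseudogenes Gm6823 and Gm8401. The length of 75 bases was chosen for this comparison.

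The depth was high and alike in both genotypes, with between 55965515 and 71464042 reads on listed genes per sample. The labels were checked on Mettl3 itself, which measured 1303, 1258 and 1192 normalised read counts across WT samples 1 to 3, against 297, 299 and 405 across cKO samples 1 to 3, and its log2 fold change was −1.92 ± 0.0986 (SE), with an adjusted p of 2.32e-14 in limma. All 10 NK cell marker genes were listed, 2 called higher and 5 lower in cKO, and their summed normalised read counts ranged from 884021 to 911871 in WT and from 856246 to 894353 in cKO. Ncr1, the locus that carries Cre in cKO mice only, fell the most of the 5 (log2 fold change −0.40). Of 7 B cell markers 6 were called higher in cKO and 0 lower, with summed levels of 1302 to 1347 in WT and 1800 to 1855 in cKO, and Cd79b was the exception. Of 9 listed T cell markers 0 were higher and 2 lower, with sums of 2884 to 3175 in WT and 2557 to 2775 in cKO. Of 6 listed myeloid markers 3 were higher and 1 lower, with sums of 46255 to 49088 in WT and 48939 to 50503 in cKO. Itgax, 1 of the 3 higher, alone made up most of these sums, with means of 40864 in WT and 43194 in cKO. Its mean lay at percentile 98.4 of the listed genes, near that of the NK cell marker Klrk1 (98.3). Which cells the Itgax reads came from was not tested. The 1 lower myeloid marker was Lyz2, with means of 2186 and 1663. Of 5 listed erythroid markers 0 passed the test by limma in either direction (1 was lower at an unadjusted p under 0.05), with sums of 811 to 870 and 684 to 832. The defining myeloid genes S100a8, S100a9 and Mpo and the T cell gene Cd8b1 were not among the listed genes. The share called in either direction was 70% of the NK cell, 85.7% of the B cell and 22.2% of the T cell markers. It was 66.7% of the myeloid and 0% of the erythroid markers. Over all genes it was 36.6%, with 17.8% higher and 18.8% lower. The part of other cells in the values that follow was not tested. In sorted bulk samples, fewer cells of a type and less RNA per cell cannot be told apart.

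The changes of the readers as a group were small in size, but the comparison with all genes was not matched for level. Of the 10 genes, 2 were called lower in cKO (Ythdf3 and Ythdc1) and 0 were called higher by limma at an adjusted p under 0.05 over all genes, where 18.8% of all genes were called lower and 17.8% higher. At an unadjusted p under 0.05, 3 readers were lower and 2 higher, beside 22.4% and 21.8% of all genes, and limma-voom called 3 lower and 1 higher. When samples were scaled to equal totals, 1 reader was called lower (Ythdf3) and 3 higher (Ythdf1, Ythdf2 and Prrc2a), while the share of higher genes among all called genes went from 48.5% to 63.4%. Without a direction, 20% of the readers were called against 36.6% of all genes. The median log2 fold change of the 10 readers was −0.068 against 0.0014 over all genes, and the median size of the change regardless of sign was 0.093 against 0.17. Apart from Igf2bp2 and Igf2bp3, the mean levels of the readers lay between percentiles 67.5 (Ythdc2) and 97.5 (Prrc2a) of the listed genes. Whether genes of like level changed by a like size was not tested. The values of all samples are drawn in the plot of normalised read counts by genotype.

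**Figure D1:**
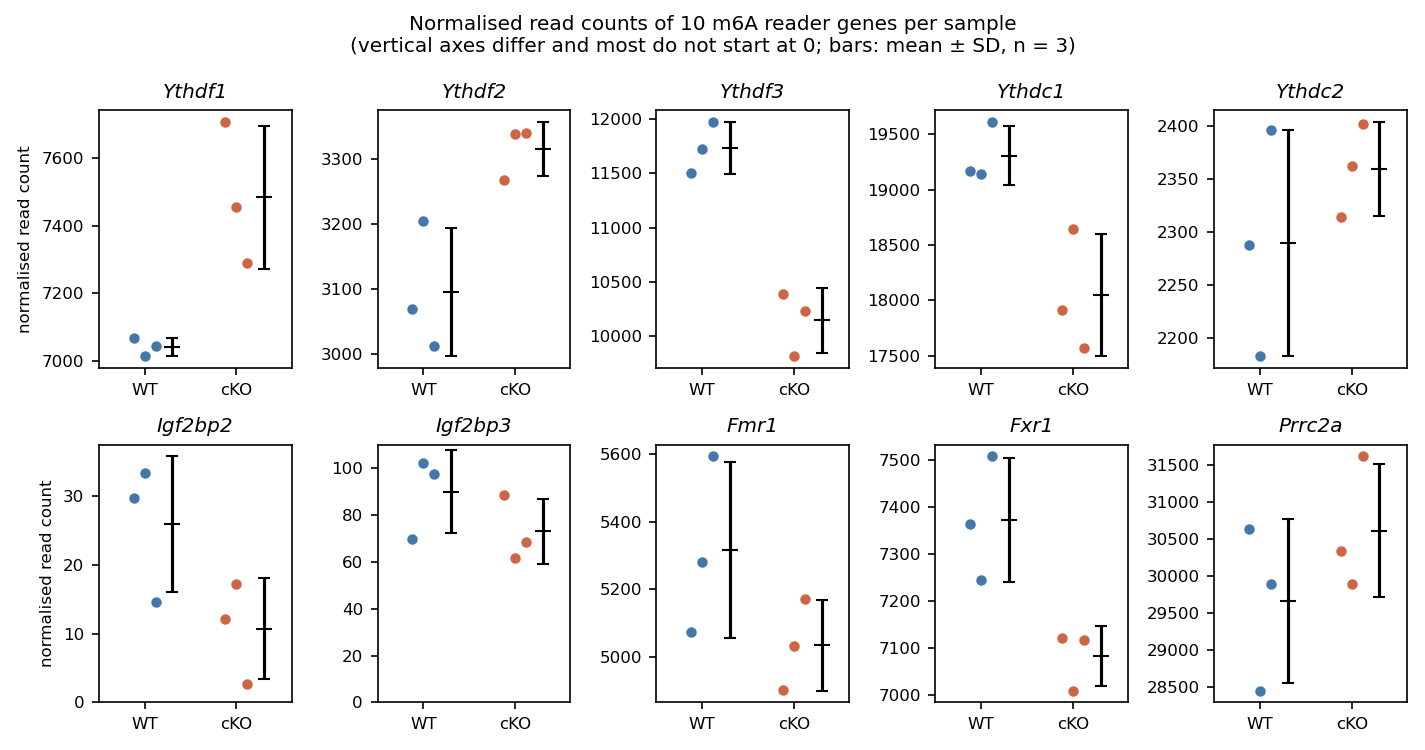
Normalised read counts (vertical axis, a separate scale for each gene, most not starting at 0) of the 10 m6A reader genes in 3 WT (blue) and 3 cKO (orange) samples, with the mean ± SD of each group beside the points. Ythdf3, Ythdc1 and Fxr1 lie lower in all 3 cKO samples than in any WT sample, Ythdf1 and Ythdf2 lie higher, and the other 5 genes overlap. Of all genes, 23.0% lie lower and 22.7% higher without overlap, or 45.7% in either direction.

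The cytoplasmic YTHDF readers showed the clearest difference, and it was in Ythdf3. Ythdf3 (chromosome 3, 16183212 to 16217037, plus strand), whose protein is known to act together with YTHDF1 in translation and with YTHDF2 in decay, measured 11503, 11727 and 11974 normalised read counts across WT samples 1 to 3. The 3 cKO samples measured 10386, 9814 and 10236. All cKO samples lay below all WT samples, as for 23.0% of all genes, and the gap between the groups was wider than the range within either. Mean levels were 11735 ± 235 for WT against 10145 ± 296 for cKO (SD, n = 3 each). Ythdf3 thus changed by −13.6% (95% confidence interval −17.6% to −9.32%), which on the log2 scale was −0.21 ± 0.0336 (SE) at an adjusted p of 1.57e-05 in limma. The call held under all 13 other settings, with log2 fold changes between −0.23 and −0.16. Omission of the filter is among these settings and could only repeat the main fit, because the filter removed no gene. The change was the largest among the called readers, and 40.8% of all genes had a log2 fold change at least as large in size. That share covers genes of every level, while the mean of Ythdf3 lay at percentile 92.1.

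Ythdf1 and Ythdf2 lay on the other side of 0, and neither passed the threshold. Ythdf1 (chromosome 2, 180904377 to 180920949, minus strand), best known for promoting the translation of marked mRNA, measured 7067, 7013 and 7045 normalised read counts across WT samples 1 to 3, against 7707, 7456 and 7288 across cKO samples 1 to 3. The 3 WT values lay unusually close together, with a coefficient of variation of 0.381% where counting error alone averages 1.22%. On the log2 scale cKO lay 0.087 ± 0.0350 (SE) above WT (95% confidence interval 0.015 to 0.16), with an adjusted p of 0.0519 in limma. Ythdf2 (chromosome 4, 132184912 to 132212303, minus strand), which recruits the CCR4-NOT deadenylase to marked mRNA, measured 3069, 3204 and 3012 across WT samples 1 to 3, against 3268, 3339 and 3340 across cKO samples 1 to 3. The corresponding difference was 0.10 ± 0.0428 (95% confidence interval 0.012 to 0.19), with an adjusted p of 0.0701 in limma. For both genes all cKO samples lay above all WT samples, which held for 22.7% of all genes in this direction and for 45.7% in either direction (p = 0.1 for each in a two-sided exact permutation test, the least that 3 against 3 samples can give). With GC content and transcript length corrected for, the log2 fold change was 0.050 for Ythdf1 (adjusted p = 0.277) and 0.078 for Ythdf2 (adjusted p = 0.168). Both passed the threshold when samples were scaled to equal totals (0.14, adjusted p = 0.00241, for Ythdf1 and 0.15, adjusted p = 0.0063, for Ythdf2), Ythdf1 also with the replicate number as a block (0.0403), the 1 CPM filter (0.0396) and limma-voom (0.0482), and each with a single sample left out (0.0413 for Ythdf1 without cKO sample 3 and 0.0399 for Ythdf2 without WT sample 2).

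Because a ratio of 2 genes in the same sample does not depend on how samples are scaled, the paralogs were also compared with each other. GC content and length were not corrected for in the ratios. The GC content of the longest coding transcript was 49.1% for Ythdf1, 46.1% for Ythdf2 and 38.4% for Ythdf3. The log2 ratio of Ythdf1 to Ythdf3 was −0.70, −0.74 and −0.77 across WT samples 1 to 3, against −0.43, −0.40 and −0.49 across cKO samples 1 to 3. The ratio was thus 22.9% higher in cKO, with no overlap between the groups (difference 0.30 on the log2 scale). The log2 ratio of Ythdf2 to Ythdf3 was −1.91, −1.87 and −1.99 in WT and −1.67, −1.56 and −1.62 in cKO, and was 24.0% higher in cKO, again without overlap (difference 0.31). The ratio of Ythdf1 to Ythdf2 differed by −0.012 on the log2 scale and overlapped. For the first and the second ratio the exact permutation test gave p = 0.1, the smallest possible, and p = 0.2 after adjustment over the 6 reader pairs compared, so the design could not reach 0.05. The p for Ythdf1 to Ythdf2 was 0.9 (exact permutation test).

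The make-up of the YTHDF transcripts was described per length of annotated exon sequence, which puts genes of different length on 1 scale. GC content was not corrected for in these levels. In WT, the level per kilobase was 2188 ± 43.9 normalised read counts (SD, n = 3) for Ythdf3, 2124 ± 8.09 for Ythdf1 and 677 ± 21.6 for Ythdf2. In cKO, Ythdf1 came first with 2257 ± 63.5, followed by Ythdf3 with 1892 ± 55.3 and Ythdf2 with 725 ± 9.02. Ythdf1 and Ythdf3 thus exchanged places, and their values did not overlap within either genotype. The spread between samples does not cover errors particular to a gene, so the order within 1 genotype is uncertain. Ythdf3 made up 43.9% ± 0.592 of the summed YTHDF level in WT and 38.8% ± 0.708 in cKO, Ythdf1 42.6% ± 0.440 and 46.3% ± 0.748, and Ythdf2 13.6% ± 0.438 and 14.9% ± 0.451 (SD, n = 3). The summed level per kilobase was 4947, 5002 and 5016 for WT, against 4975, 4809 and 4837 for cKO, and the groups overlapped. With the length of the longest coding transcript in place of the exon length, the share of Ythdf3 was 43.7% in WT and 38.7% in cKO.

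**Figure D2:**
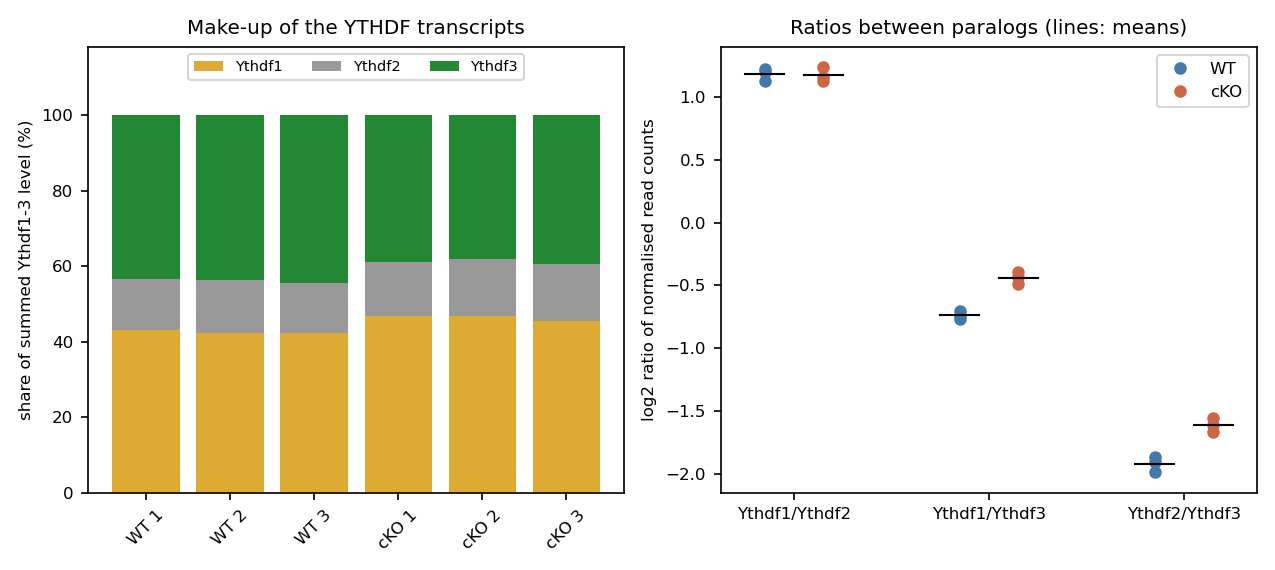
Left, the share (%) of Ythdf1, Ythdf2 and Ythdf3 in their summed level per kilobase of exon, 1 bar per sample. Right, log2 ratios of normalised read counts between paralogs in WT (blue) and cKO (orange) samples with group means as lines. The share of Ythdf3 averages 43.9% in WT and 38.8% in cKO, and both ratios to Ythdf3 lie higher in all cKO samples, while Ythdf1/Ythdf2 overlaps.

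Among the YTHDC readers, the abundant nuclear reader was lower in cKO and the helicase was not called. Ythdc1 (chromosome 5, 86804221 to 86836659, plus strand) measured 19173, 19143 and 19613 normalised read counts across WT samples 1 to 3, against 17916, 18649 and 17568 across cKO samples 1 to 3. All cKO samples lay below all WT samples, as for 23.0% of all genes, although cKO sample 2 came near them. Ythdc1 thus changed by −6.58% (95% confidence interval −10.7% to −2.29%), which on the log2 scale was −0.098 ± 0.0315 (SE) at an adjusted p of 0.0153 in limma. The call was lost with equal totals (log2 fold change −0.048, adjusted p = 0.201), and without WT sample 3 (adjusted p = 0.0633), cKO sample 1 (0.0695) or cKO sample 3 (0.0889). The long noncoding gene Gm43055, annotated on the same strand, shares 13.1% of the 75-base stretches of the longest coding Ythdc1 transcript, so part of its reads could not be assigned to 1 gene.

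Ythdc2 (chromosome 18, 44827746 to 44889724, plus strand) measured 2288, 2183 and 2397 normalised read counts across WT samples 1 to 3, against 2314, 2363 and 2402 across cKO samples 1 to 3. The groups overlapped, and the log2 fold change of 0.045 (95% confidence interval −0.055 to 0.14) had a limma adjusted p of 0.516. The ratio of Ythdc1 to Ythdc2 differed by −9.42% in cKO and did not overlap between the groups (exact permutation test, p = 0.1, the smallest possible, and 0.2 adjusted over the 6 pairs).

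The IGF2BP readers had the lowest levels of the 10, and Igf2bp2 rested on few reads. These proteins bind marked mRNA through KH domains and are known to stabilise it. The third family member, Igf2bp1, was not among the listed genes. Igf2bp2 (chromosome 16, 22059009 to 22163299, minus strand) measured 29.8, 33.3 and 14.6 normalised read counts across WT samples 1 to 3, against 12.2, 17.3 and 2.74 across cKO samples 1 to 3. These values rest on 30, 28 and 15 reads in WT and 12, 19 and 3 in cKO. The groups overlapped, and only 1.61% of listed genes had a mean as low or lower. The log2 fold change, −1.40 ± 0.568 (SE) at a limma adjusted p of 0.0553, was the furthest from 0 among the readers and the least precise, with a 95% confidence interval from −2.57 to −0.23. Without cKO sample 3 the log2 fold change was −0.71 (adjusted p = 0.318), and without WT sample 1 or 2 the adjusted p was 0.164 or 0.183. It was 0.0304 without WT sample 3, 0.0216 without cKO sample 2, 0.0317 with the replicate number as a block, 0.0377 by limma-voom and 0.0485 with GC content and transcript length corrected for.

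Igf2bp3 (chromosome 6, 49085223 to 49214957, minus strand) measured 69.5, 102 and 97.6 normalised read counts across WT samples 1 to 3, against 88.5, 61.8 and 68.6 across cKO samples 1 to 3. Its mean lay at percentile 21.4 of the listed genes. The groups overlapped (log2 fold change −0.29 ± 0.236, SE, limma adjusted p = 0.362). Its exons share 1529 bases, 18.7% of its exon sequence, with Malsu1 on the opposite strand. Of the 75-base stretches of the longest coding Igf2bp3 transcript, 34.1% were shared with Malsu1. Malsu1 had a mean of 1339 ± 41.7 (SD, n = 3) in WT and 1122 ± 68.4 in cKO. It was called lower (log2 fold change −0.26, limma adjusted p = 0.00194). Whether reads were counted by strand is not given in the sources used here, and the part of Malsu1 reads in the Igf2bp3 values was not tested.

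FMRP, known to repress translation, and its paralog FXR1 are RNA-binding proteins, and neither gene was called. Fmr1 (chromosome X, 68678541 to 68717963, plus strand), the gene silenced in fragile X syndrome, measured 5074, 5280 and 5593 normalised read counts across WT samples 1 to 3, against 4902, 5031 and 5170 across cKO samples 1 to 3. The groups overlapped, with a log2 fold change of −0.078 (95% confidence interval −0.16 to 0.0059, limma adjusted p = 0.142). Fxr1 (chromosome 3, 34019943 to 34070322, plus strand) measured 7364, 7244 and 7509 across WT samples 1 to 3, against 7120, 7008 and 7117 across cKO samples 1 to 3. Its groups did not overlap, as for 23.0% of all genes in this direction, but the log2 fold change of −0.058 (95% confidence interval −0.13 to 0.013) had a limma adjusted p of 0.202. The ratio of Fmr1 to Fxr1 differed by −0.020 on the log2 scale and overlapped (exact permutation test, p = 0.5).

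Prrc2a (chromosome 17, 35149076 to 35164897, minus strand), a large proline-rich protein first described as a reader in oligodendrocyte lineage cells, was the most abundant reader by read count. It measured 30627, 28453 and 29890 normalised read counts across WT samples 1 to 3, against 30335, 29884 and 31610 across cKO samples 1 to 3, and the groups overlapped. The log2 fold change was 0.046 (95% confidence interval −0.021 to 0.11, limma adjusted p = 0.292). It was called with equal totals (log2 fold change 0.096, adjusted p = 0.0230) and fell on the other side of 0 once GC content and transcript length were corrected for (−0.0049). The longest coding transcript of Prrc2a is the richest in G and C among the readers, with 60.6% against 38.4% for Ythdf3, the poorest.

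**Figure D3:**
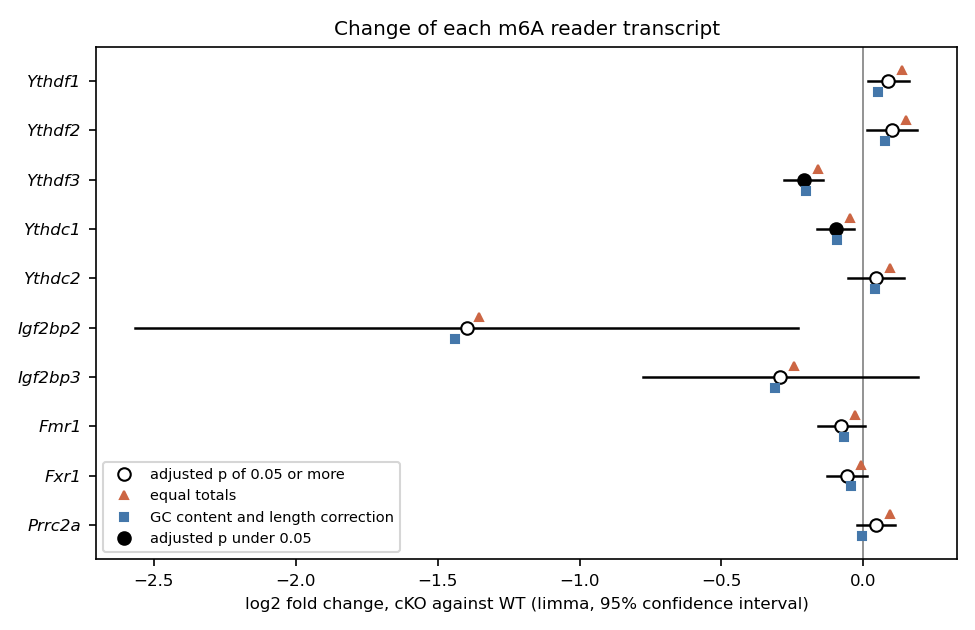
Log2 fold change of cKO against WT for the 10 readers (circles, limma, bars: 95% confidence intervals, filled where the adjusted p was under 0.05), with the values after scaling to equal totals (triangles) and with GC content and transcript length corrected for (squares). Ythdf3 lies between −0.23 and −0.16 under all settings run, Igf2bp2 has the widest interval, and Prrc2a is the reader whose sign changes.

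The order of the readers by level per kilobase of exon was almost the same in both genotypes. In WT it ran from Prrc2a (3886 ± 145, SD, n = 3) over Ythdf3, Ythdf1, Ythdc1 (1415 ± 19.3), Fxr1 (1125 ± 20.2), Ythdf2, Fmr1 (593 ± 29.1) and Ythdc2 (258 ± 12) to Igf2bp3 (11.0 ± 2.17) and Igf2bp2 (3.50 ± 1.34). No neighbours in this order overlapped in either genotype. In cKO the exchange of Ythdf1 and Ythdf3 was the only change. The order depends on the length taken for each gene, and GC content was not corrected for in it. With the longest coding transcript, Ythdc1 came first in WT with 4443 ± 60.5 per kilobase and overlapped with Prrc2a (4306 ± 161), because its annotated exons add up to 13651 bases and its longest coding transcript to 4346.

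The readers' own transcripts were examined for GGACT, the most common sequence of the m6A consensus, on the transcript strand. All 10 longest coding transcripts held at least 1 copy, as did 87.8% of the longest transcripts of the 14105 listed genes with a match in the annotation. The density was 2.07 copies per kilobase in Ythdc1 (9 copies), 1.6 in Prrc2a (11 copies), 1.3 in Igf2bp2 and 1.21 in Ythdf2 (5 copies each). It was 0.314 in Ythdf1 and 0.196 in Ythdf3, with 1 copy each. The median was 0.562 in the readers and 1.02 over all matched genes. The called readers Ythdf3 and Ythdc1 thus had the lowest and the highest density of the 10. A copy of the motif is a description of the sequence, and methylation was not measured in these samples.

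Related RNA-binding proteins were counted in the same fit, and the difference between their counts and those of the readers was not tested. Of 11 listed reader paralogs and other proteins whose binding is sensitive to m6A, 2 were called higher and 4 lower in cKO (adjusted p under 0.05), a share of 54.5% in either direction against 36.6% of all genes (17.8% higher and 18.8% lower), with a median log2 fold change of −0.029. Prrc2b, the paralog of Prrc2a, rose from 21889 ± 743 to 26408 ± 950 normalised read counts (SD, n = 3), or 0.27 ± 0.0331 (SE) on the log2 scale (limma adjusted p = 2.96e-07). Its 3 cKO values of 26496, 25417 and 27311 lay above the WT values of 21994, 21099 and 22573. The exons of Prrc2b share 738 bases with the antisense gene Gm13610, and reads of the 2 genes could not be told apart without strand. Lrpprc, which binds mitochondrial mRNA, rose from 1400 ± 87.3 to 1613 ± 68.8 (log2 fold change 0.20, limma adjusted p = 0.00743), with an adjusted p of 0.0516 without WT sample 1.

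The 3 largest of the 4 falls in this list were in nuclear and stress granule proteins. Rbmx (hnRNP G), a splicing factor that binds RNA opened by m6A, fell from 4145 ± 155 to 3347 ± 248 normalised read counts (SD, n = 3), or −0.31 ± 0.0479 (SE) on the log2 scale (limma adjusted p = 9.84e-06). Hnrnpc, which likewise reaches its U-rich sites when m6A opens the RNA, fell from 30601 ± 1197 to 25626 ± 654 (log2 fold change −0.26 ± 0.0325, SE, limma adjusted p = 5.46e-07). G3bp1, the stress granule protein that m6A repels, fell from 15783 ± 81.8 to 14466 ± 368 (log2 fold change −0.13, limma adjusted p = 0.00226). All 3 were called under all 13 other settings, among them omission of the filter, which repeats the main fit. Of the 75-base stretches of Hnrnpc 5.95% and of G3bp1 4.59% were shared with other genes, chiefly processed pseudogenes.

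Of 17 listed partner proteins of the readers, 5 were called higher and 2 lower, 41.2% against 36.6% of all genes, with a median log2 fold change of 0.0020. Pop1, a subunit of the RNase P and MRP endonucleases that cut YTHDF2-bound RNA, rose from 186 ± 14.3 to 247 ± 17.2 normalised read counts (SD, n = 3), or 0.41 ± 0.139 (SE) on the log2 scale (limma adjusted p = 0.0233). Its call was lost without WT sample 1 (adjusted p = 0.0893), cKO sample 1 (0.0700) or cKO sample 2 (0.0866). Nufip1, an FMRP-interacting protein, rose from 1276 ± 134 to 1540 ± 73.1 (log2 fold change 0.28, limma adjusted p = 0.00182). Eif3b, a subunit of the initiation factor that binds YTHDF1, rose from 8391 ± 245 to 9185 ± 136 (log2 fold change 0.13, limma adjusted p = 0.00358).

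The cytoplasmic FMRP-interacting proteins were the falls among the partners. Cyfip1 fell from 1400 ± 122 to 1199 ± 41.3 normalised read counts (SD, n = 3), or −0.22 on the log2 scale (limma adjusted p = 0.00868), with an adjusted p of 0.0731 without WT sample 1 and 0.0515 without cKO sample 1. Its exons share 1316 bases with Nipa2 on the opposite strand. Of the 75-base stretches of the longest coding Cyfip1 transcript, 20.7% were shared with other genes, chiefly Nipa2. The part of Nipa2 reads in the Cyfip1 values was not tested. Cyfip2, the more abundant of the pair, fell from 32768 ± 1293 to 29671 ± 369 (log2 fold change −0.14, limma adjusted p = 0.000705). Of the 11 writers and erasers of m6A, 6 were called higher and 1 lower, the latter Mettl3 itself, or 63.6% in either direction against 36.6% of all genes.

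**Figure D4:**
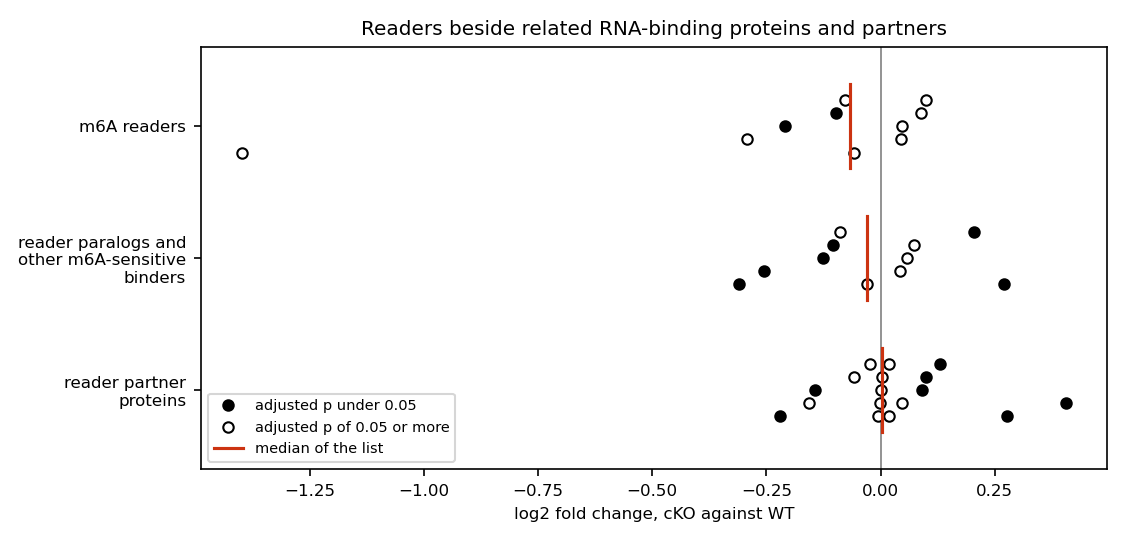
Log2 fold changes of cKO against WT for the 10 readers, 11 reader paralogs and other m6A-sensitive binders and 17 partner proteins (1 point per gene, spread vertically for legibility, filled where the limma adjusted p was under 0.05), with list medians as red lines. The medians lie at −0.068, −0.029 and 0.0020, and 2, 6 and 7 genes are filled.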

How the data were processed

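The mRNA-seq libraries of splenic NK cells were aligned to GRCm38 with HISAT2 and counted per gene with featureCounts (1.5.0-p3 in the submitters' processing notes). The deposited signal is a normalised read count, in which the authors scaled gene counts by DESeq2 size factors. Only genes with an adjusted p of the authors are listed, so weakly expressed genes are under-represented. The table adds the mean of the 6 samples and the authors' own test (fold change, its error, Wald statistic, raw and adjusted p), none of which was used. All values (100%) were whole multiples of 1 step per sample, within 0.05 of a step, and read numbers and depths given here are values divided by that step, taken as 1 read. The step was inferred: in 4 samples the smallest value is more than 1 step, and in WT sample 1 a step close to 1 is hard to tell from rounding. Recovery of whole reads was therefore not accepted as shown, and tests on recovered reads were left out. Groups and replicate numbers were taken from the labels.

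Values were taken as log2(value + 1), which understates changes of low genes, and the filter, a value of 1 or more in 3 or more samples, kept 14490 of 14490 genes. Fits used limma 3.58.1 in R 4.3.3 with a variance trend, genotype as the only term, two-sided tests and Benjamini-Hochberg adjustment over all genes. The steps were tested on simulated data. Lengths, positions and sequences came from GENCODE M21 (GRCm38). Protein sequences were not used here. Genes named beside the readers and Mettl3 are the 3 largest rises and falls among called genes of each list of related proteins, with cell type markers from a list, and Cd79b, Malsu1 and other overlapping genes and pseudogenes named after their values or annotation were seen. The members and lists were chosen with earlier results of these data known. Intervals do not cover errors of annotation.

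Alternatives were equal totals, a 0.1 pseudocount, omission of the filter, a stricter filter (1 CPM or more in 3 or more samples), the replicate number as a block and each sample left out. Since the filter removed no gene, its omission repeats the main fit and is no separate check. limma-voom and a correction for GC content and length (splines of 5 degrees of freedom, 14105 genes) were added after the data were seen. The input of limma-voom was the normalised read counts, not raw reads, with 1 library size for all samples. The planned edgeR, DESeq2 and TMM alternatives on reads were not run. Same-numbered samples did not deviate together in every pair (r between −0.040 and 0.056), so the numbers were not taken as pairs.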

Additional observations from a re-analysis of the deposited data

How the results depend on the processing

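Of the 10 readers, 0 were called higher and 2 lower. Equal totals, which shifted the median over all genes to 0.051 (log2), gave 3 higher and 1 lower, and moved all genes from 2576 higher and 2731 lower (48.5% higher) to 3487 and 2016 (63.4% higher). Correcting for GC content and length gave 2259 and 3022 (42.8% higher). The 1 CPM filter, which removed Igf2bp2, the replicate block and limma-voom gave 1 reader higher each, Ythdf1. With a sample left out, readers higher lay from 0 to 1 and lower from 1 to 3. For the log2 ratio of Ythdf1 to Ythdf2, differences lay from −0.044 to 0.012 with a sample left out, and for Fmr1 to Fxr1 from −0.052 to 0.0042, changing sign. Prrc2a was −0.0049 once GC content and length were corrected for. Under the replicate block, samples sharing only a number, 4 readers were called (1 higher, 3 lower). Causes were not tested. All 10 readers kept their sign under the other settings, and the number of all genes called stayed within 1.5 times 5307. Counting error per sample was highest for Igf2bp2 among the readers, at 21.0% in WT and 36.5% in cKO. The planned edgeR, DESeq2 and TMM alternatives were not run.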
